A study of Mus musculus with 18 samples.

Results

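The genes of translation initiation factors other than eIF2 and eIF2B, together with those of the elongation factors eEF1 and eEF2, were followed in epidermal basal cells of mouse embryos. They were taken from a table of coding-sequence read counts by gene symbol: every symbol beginning with Eif1, Eif3, Eif4, Eif5, Eif6, Eef1a, Eef1b, Eef1d, Eef1e, Eef1g or Eef2 that held a read in any library. This gave 47 genes of the 20655 symbols in the table, of which 16293 held a read. A further 2 symbols, Eif3j1 and Eif3j2, fit the same pattern and held 0 of 68565209 reads over all libraries, which allows a level of up to 0.0438 CPM, the unit of level used here (read counts scaled to library size). All 28-base windows of the Eif3j1 and Eif3j2 coding sequences also occur in the other or in further genes, and how the counting treated reads with several matches is not given in the sources used here.

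The 18 libraries came from 3 conditions, each with 3 libraries of ribosome footprints and 3 of RNA. The control, WT shScram, received a scrambled shRNA, HrasG12V shScram received the same shRNA in embryos with oncogenic HrasG12V, and HrasG12V shEif2b5 received an shRNA against Eif2b5, which encodes the catalytic subunit of the eIF2 exchange factor eIF2B. All embryos were injected in utero at E9.5 and enriched basal cells were taken at E18.5. HrasG12V embryos were of strain FR-HrasG12V and WT embryos carried a membrane tdTomato and EGFP reporter at the ROSA26 locus, so strain and genotype cannot be told apart. No WT group received the shRNA against Eif2b5. WT footprint library 1 alone has Rosa26 as its genotype label in place of WT. The labels do not tie the 3 libraries of a group to animals or litters, so each p-value reflects the spread among the libraries and no more, which may be technical.

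Initiation in eukaryotes joins the small ribosomal subunit to an mRNA and moves it to a start codon. eIF4E binds the cap, eIF4G is the scaffold that links it to the helicase eIF4A and to eIF3, and the 4E-BP proteins compete with eIF4G for eIF4E. eIF1, eIF1A and eIF5 act on the scanning subunit and set how strictly a start codon is chosen, eIF5B joins the large subunit, and eIF6 keeps free large subunits apart. eEF1A then brings aminoacyl-tRNA to the ribosome, the eEF1B complex (Eef1b2, Eef1d and Eef1g) recharges eEF1A with GTP, eEF2 moves the ribosome along, and eIF5A relieves stalls. Several of these mRNAs carry a 5′ terminal oligopyrimidine (TOP) tract, through which mTOR signalling controls their translation along with that of ribosomal protein mRNAs. The mRNA of eIF1 is known for a start codon in a poor context, by which eIF1 limits its own synthesis.

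The sequences around the start codon are shown for scanning factors, whose own mRNAs differ in this feature. Eif1a, also a scanning factor, is left out. Shown as well are Eif4e3, the factor with the largest footprint difference, and Eef1a1, the most abundant. Each line gives 12 bases before the start codon, the start codon in capitals and 6 bases after it, as the GENCODE M21 annotation of mm10 places them.
Eif1: gaatcgtatcgtATGtccgct
Eif1b: cactagtgtcgcATGtccact
Eif1ax: gtctttgcggccATGcccaag
Eif1ad: acagaaaccagcATGtctcag
Eif5: taataagccaaaATGtctgtc
Eif4e3: ccggcggagaacATGgcgctg
Eef1a1: ttcaaagcaaaaATGggaaag
The start codons lie at chr11:100320130-100320132 for Eif1 and at chr9:120492811-120492813 for Eif1b, both on the plus strand. Those of Eif1ax (chrX:159372400-159372402), Eif1ad (chr19:5368190-5368192) and Eif5 (chr12:111539616-111539618) are also on the plus strand. Eif4e3 (chr6:99666750-99666752) and Eef1a1 (chr9:78480652-78480654) are on the minus strand. A favourable context has a purine 3 bases before the start codon and a G directly after it. Eif1 and Eif1b have neither, Eif1ax, Eif1ad and Eif5 have the purine without the G, and Eif4e3 and Eef1a1 have both. Among 46 of the factors with an annotated ATG, 47.8% had both and 8.7% had neither, beside 42.7% and 6.66% of 18565 genes. The annotated coding sequence of Eif4g2, which is known to start at a codon other than ATG, had no ATG start.

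Library depth was 3319175 to 4933298 coding-sequence counts for footprints and 1771365 to 5505386 for RNA. The targeted gene Eif2b5 had RNA levels of 158, 179 and 159 CPM in WT. They were 127, 388 and 145 CPM under HrasG12V shScram, where library 2 stood far above the others, and 134, 128 and 143 CPM under HrasG12V shEif2b5. Footprint levels of Eif2b5 were 102, 106 and 102 CPM in WT, then 91.9, 93.1 and 102 CPM under HrasG12V shScram and 82.7, 78.5 and 95.4 CPM under HrasG12V shEif2b5. The libraries labelled shEif2b5 were thus below all WT libraries and overlapped the HrasG12V shScram libraries in both kinds. Their differences from HrasG12V shScram were -0.68 in RNA (SE 0.37, adjusted p = 0.257), and -0.16 in footprints (SE 0.12, adjusted p = 0.994) on the log2 scale, so no knockdown passed the test with all libraries. Without RNA libraries 1 and 3 of HrasG12V shScram, described next, only the high library 2 is left in that group, and the RNA difference was -1.52 (adjusted p = 6.98e-05). All 12 basal keratinocyte markers were detected in every group. The same held for 9 markers of spinous and granular cells in the table, such as Krt1 and Krt10, whose summed level was 66753 to 103731 CPM in WT RNA, 35398 to 64897 CPM in HrasG12V shScram RNA and 49745 to 61764 CPM in HrasG12V shEif2b5 RNA. In footprints these sums were 22790 to 45594, 32598 to 39445 and 23815 to 71652 CPM in the same order. Other marker lists also differed between conditions. In RNA the summed basal markers were 14147 to 19035 CPM in WT, 9767 to 13196 CPM for HrasG12V shScram and 14841 to 17151 CPM for HrasG12V shEif2b5. Those of the hair follicle (7 markers) were likewise lowest for HrasG12V shScram, at 2326 to 2698 CPM against 2703 to 3759 and 3144 to 4181 CPM. Melanocyte markers (8) were highest there, at 646 to 789 CPM against 425 to 609 and 503 to 634 CPM. In footprints, the basal sums of HrasG12V shEif2b5 (16146 to 17981 CPM) and its hair follicle sums (2400 to 2494 CPM) lay wholly above those of WT (10897 to 15586 and 1551 to 2113 CPM), while HrasG12V shScram (12438 to 16948 and 1898 to 2396 CPM) overlapped WT. Summed markers of Merkel cells, which are few in the epidermis, were higher in WT than in HrasG12V shScram in both kinds. These marker lists moved with condition. Dermal fibroblast markers (8) were uneven within WT, at 359 to 2126 CPM in RNA and 1227 to 2484 CPM in footprints. They were at 520 to 1060 and 1215 to 1840 CPM in HrasG12V shScram, and at 469 to 566 and 1157 to 1360 CPM in HrasG12V shEif2b5. The part of all these markers in the results for the factors was not tested. RNA libraries 1 and 3 of HrasG12V shScram stood apart: their median correlation with the other RNA libraries was 0.9448 for each, against 0.9592 to 0.9742 for the other 7. RNA differences and ratios that use this group are therefore followed by the value without them, where library 2 alone is left in the group.

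The factors took 2.32%, 2.34% and 2.61% of all footprint counts in the WT libraries, 2.67%, 2.56% and 2.66% in HrasG12V shScram, and 2.69%, 2.58% and 2.69% in HrasG12V shEif2b5. The HrasG12V values overlap those of WT only through WT library 3. In RNA the share ran from 2.79% to 3.58% over all 9 libraries with no separation of the conditions. Eef1a1 held the largest part, with 7177 ± 819 CPM of footprints and 12412 ± 1642 CPM of RNA in WT (SD, n = 3). At the other end, Eef1a2, the eEF1A of muscle and neurons, held 10 counts in all 18 libraries and Eif4e1b, an oocyte form of eIF4E, held 2. Neither was abundant enough to be tested, which left 45 factors in footprints and 43 in RNA, where Eif4ebp3 and Eif5a2 also fell below the filter.

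Set per kilobase of coding sequence, so that genes can be compared, the highest footprint densities in WT were those of Eef1a1 (5178 CPM per kb), Eif5a (2568), the helicase gene Eif4a1 (2104), Eif1 (2080) and Eef1b2 (1090). Eef2 had 654 CPM per kb, its inhibitory kinase Eef2k 48.5, the large-subunit joining factor Eif5b 47.3 and the inhibitor Eif4ebp2 98.5. The large scaffold Eif4g1 had 105 CPM per kb and the largest eIF3 subunit, Eif3a, 128. Footprint density counts ribosomes on an mRNA and so combines its amount with its ribosome load.

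Footprints of HrasG12V shScram exceeded those of WT for most of the factors, by small amounts. Of 45 tested, 2 rose, Eif4e3 and Eif5, and none fell at an adjusted p under 0.05 in edgeR's quasi-likelihood test over 11448 genes, where 1.23% of all genes rose and 0.472% fell, 1.7% in either direction. DESeq2 called 3, these and Eif5a, against 2.27% of the genes it gave an adjusted p. The log2 fold change was above 0 for 38 of 45 (84.4%), against 48% of all genes, and the median log2 difference was 0.17 against -0.01. At an unadjusted p under 0.05 there were 14 (31.1%, against 14.3% of all genes). The HrasG12V shScram libraries lay wholly above the WT libraries for 13 factors (28.9%, against 10.4% of all genes) and wholly below for 3 (Eif4g2, Eif4ebp2 and Eif4enif1), against 9.89% of all genes, or 16 in either direction against 20.3%. The counts rest on single WT and HrasG12V libraries: none was called without HrasG12V shScram footprint library 1 or WT footprint library 2, 1 without HrasG12V shScram library 3, and 8 without WT library 3.

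With the shRNA against Eif2b5 added, footprints differed little from those of HrasG12V shScram. None of the 45 factors was called by edgeR, as none of all 11448 genes was (0%), and DESeq2 called 0 factors and 0.00874% of all genes. Only 1 factor, Eif4g3, had an unadjusted p under 0.05, against 4.53% of all genes. The libraries lay wholly above those of HrasG12V shScram for 4 factors (Eif3a, Eif3i, Eif3l and Eif4g3) and wholly below for 2 (Eef1e1 and Eif5a2), 6 in all, against 5.5%, 5.59% and 11.1% of all genes. Against WT, edgeR again called none, beside 0.97% of all genes in either direction (0.76% higher and 0.21% lower), whereas 21 factors (46.7%) had an unadjusted p under 0.05, against 14.4% of all genes, and DESeq2 called 2, Eef1d and Eif3i, both higher, against 2% of all genes. The difference was above 0 for 37 of 45 (82.2%, against 49.2% of all genes), with a median of 0.21 on the log2 scale against -0.01. The HrasG12V shEif2b5 libraries lay wholly above WT for 22 factors (48.9%, against 8.32% of all genes) and wholly below for 2 (Eif4a2 and Eif4enif1, against 7.75%), which makes 24 in either direction against 16.1%. Without WT footprint library 3, 8 factors were called in this comparison, and without HrasG12V shEif2b5 library 1, 2 were. Both comparisons with WT use the same 3 WT libraries, so they are not independent of each other.

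**Figure D1:**
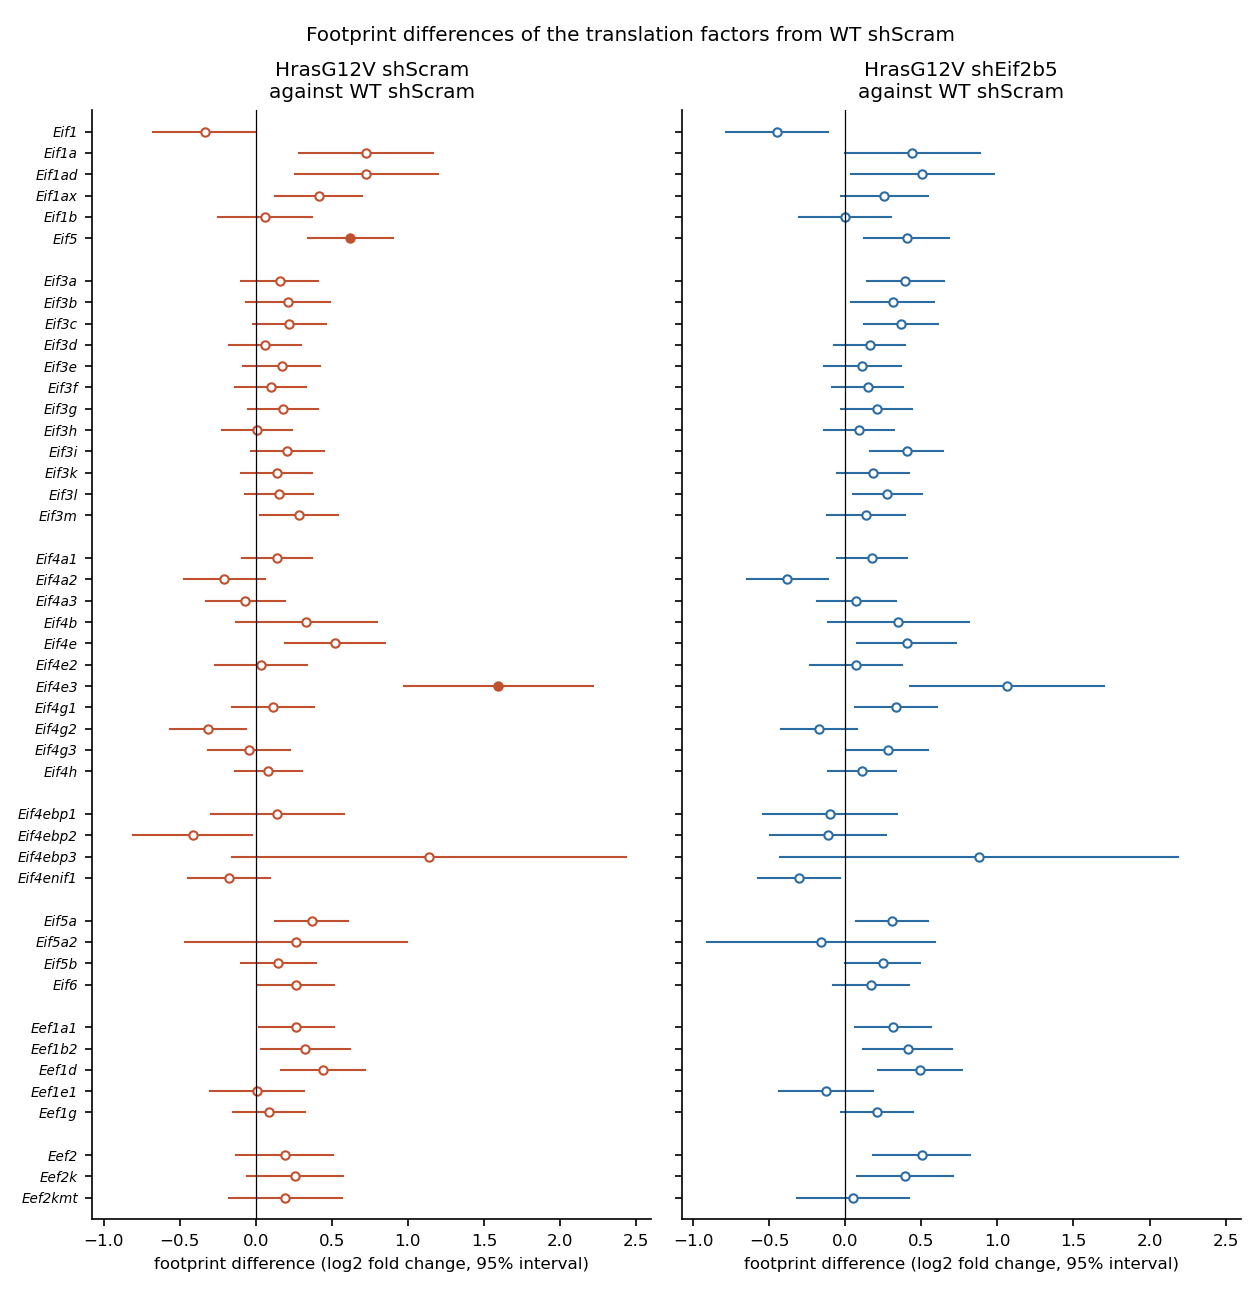
Footprint differences from WT shScram for the 45 tested factors, as log2 fold change on the x axis with its 95% interval, for HrasG12V shScram (left) and HrasG12V shEif2b5 (right), grouped by role from the scanning factors at the top to eEF2 at the bottom. Filled points are the 2 factors called by edgeR, Eif4e3 and Eif5, and most open points lie to the right of 0 in both panels (38 and 37 of 45).

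In RNA, the direction was mixed between HrasG12V shScram and WT. Between HrasG12V shScram and WT, 5 factors rose (Eif1, Eif1a, Eif1ax, Eif5 and Eif4e3) and 2 fell (Eif4a2 and Eef2k) among 43 tested, where 4.65% of all 11096 genes rose and 3.05% fell, 7.7% in all. At an unadjusted p under 0.05 there were 12 factors, against 25.3% of all genes. The libraries of HrasG12V shScram lay wholly above WT for 6 factors and wholly below for 3, against 13.7% and 12.4% of all genes (26.1% in either direction). DESeq2 called 7 factors, against 7.89% of all genes. The difference was above 0 for 25 and below 0 for 18, with a median of 0.03 on the log2 scale, or above 0 for 23 and below 0 for 21 of 44, with a median of 0.01, without libraries 1 and 3. Between HrasG12V shEif2b5 and HrasG12V shScram, Eif3b and Eif5b rose and Eif1 fell, against 5.23% and 7.79% of all genes (13% in all). Of the factors, 14 had an unadjusted p under 0.05, against 30.5% of all genes, and 8 lay wholly above and 4 wholly below, against 13.4% and 15.2% (28.6% in either direction). DESeq2 called 3 there, against 13.2%. Between HrasG12V shEif2b5 and WT, edgeR called 0 factors and 0.324% of all genes (0.225% higher and 0.0991% lower), and DESeq2 called 0 factors and 0.577% of all genes. There 2 factors (Eif1b and Eif4e3) had an unadjusted p under 0.05, against 7.32% of all genes, and 3 lay wholly above WT (Eif1ax, Eif1b and Eif4b) and 0 wholly below, against 7.68% and 8.34% (16% in either direction). Most RNA differences were above 0 in this comparison, 31 of 43 (72.1%, against 49.7% of all genes), with a median of 0.09 on the log2 scale. Without HrasG12V shScram RNA libraries 1 and 3, edgeR called 0 of the factors in either comparison that uses this group, where it called 47 and 17 genes in all, with 1 library then left in the group and its spread taken from the others. At an unadjusted p under 0.05 there were then 4 and 6 of 44 factors, against 12.4% and 11.4% of all genes. Over the 9 fits that each left out 1 RNA library, the RNA call held 9 times for Eif1 in both comparisons, 5 times for Eif3b and 4 for Eif4a2. It held 3 times for Eif1a and Eif4e3, 2 for Eif5 and Eef2k and 1 for Eif1ax and Eif5b, with adjusted p up to 0.214. The same HrasG12V shScram libraries enter both, so opposite signs in them are not independent observations.

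**Figure D2:**
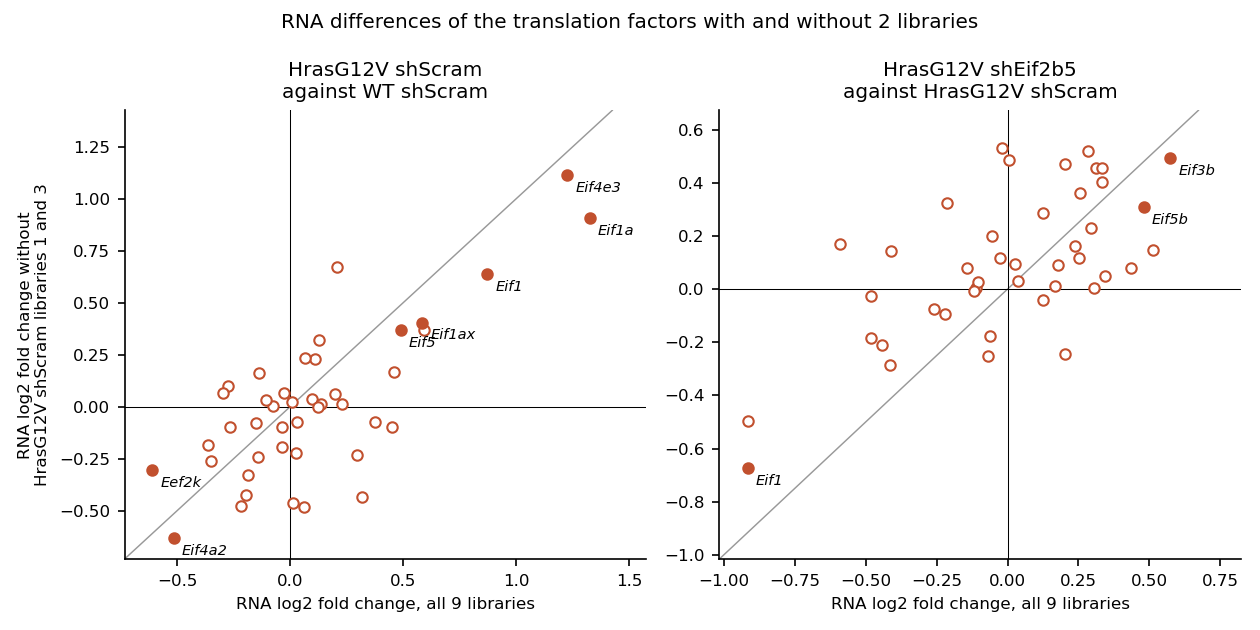
RNA differences of the tested factors with all 9 RNA libraries (x axis, log2 fold change) against the same without HrasG12V shScram libraries 1 and 3 (y axis, log2 fold change), for HrasG12V shScram against WT and HrasG12V shEif2b5 against HrasG12V shScram. Factors called with all libraries are named: Eif1 moves from 0.87 to 0.64 in the first comparison and from -0.92 to -0.67 in the second.

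Among the genes listed as scanning factors, which include Eif1ad by its name, 4 of 6 rose in HrasG12V shScram RNA relative to WT. Of all genes 4.65% rose there, and the median log2 difference of the 6 was 0.54. Without HrasG12V shScram RNA libraries 1 and 3, 0 of the 6 were called and the median was 0.39. Eif1, at chromosome 11, 100319885 to 100322096, had RNA levels of 119, 138 and 97.1 CPM in WT, 225, 182 and 236 CPM for HrasG12V shScram and 93.3, 136 and 112 CPM for HrasG12V shEif2b5. The 3 HrasG12V shScram libraries were above all 6 others. Eif1 RNA rose by 0.87 on the log2 scale (SE 0.17, adjusted p = 0.00726), a 1.83-fold difference, and was lower by 0.92 (SE 0.17, adjusted p = 0.0049) in HrasG12V shEif2b5 than in HrasG12V shScram. In the fits that left out 1 library the adjusted p values were 0.000488 to 0.0424 and 0.000226 to 0.0393. Without HrasG12V shScram RNA libraries 1 and 3 the differences were 0.64 (adjusted p = 0.229) and -0.67 (adjusted p = 0.265). Of the 28-base windows in Eif1, 99% also occur in other genes, so its count depends on how the counting treated reads with several matches.

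Eif1 footprints did not follow its RNA. They were 883, 572 and 662 CPM in WT, 600, 554 and 523 CPM for HrasG12V shScram and 493, 426 and 630 CPM for HrasG12V shEif2b5. WT library 1 was the highest, and the groups overlapped. The HrasG12V shScram difference from WT was -0.34 on the log2 scale (95% interval -0.67 to 0.00, adjusted p = 0.353), and with offsets for coding length and GC, chosen after seeing the data, it was -0.48 and called lower (adjusted p = 0.038). The footprint difference was therefore 1.21 lower than the RNA difference on the log2 scale (-1.21, SE 0.25, adjusted p = 0.0213 in the interaction test over 10793 genes, of which 1.17% were called, 1.02% lower and 0.148% higher), the only factor called in that test. This call held in 11 of 18 fits that left out 1 library (adjusted p 0.00478 to 0.0993), and was -0.98 (adjusted p = 0.272) without HrasG12V shScram RNA libraries 1 and 3. Between HrasG12V shEif2b5 and HrasG12V shScram the interaction was 0.80 (SE 0.25, adjusted p = 0.0843), or 0.56 without those 2 libraries. With all libraries DESeq2 called this interaction (0.79, adjusted p = 0.0488).

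Eif5, which promotes GTP hydrolysis by eIF2 once a start codon is met, lies at chromosome 12, 111538016 to 111546752. Its footprints were 164, 131 and 176 CPM in WT, 277, 210 and 237 CPM for HrasG12V shScram and 215, 216 and 192 CPM for HrasG12V shEif2b5. All 6 HrasG12V libraries were above all 3 WT libraries. Eif5 footprints rose 1.54-fold in HrasG12V shScram (log2 0.62, SE 0.13, adjusted p = 0.0202), and the call was lost without HrasG12V shScram footprint library 1 (adjusted p = 0.156), library 3 (0.0761) or WT library 2 (0.119). Eif5 RNA was 136, 144 and 128 CPM in WT, 195, 175 and 200 CPM for HrasG12V shScram and 124, 162 and 143 CPM for HrasG12V shEif2b5. The RNA rose by 0.49 (SE 0.14, adjusted p = 0.0436), or 0.37 (adjusted p = 0.429) without HrasG12V shScram RNA libraries 1 and 3. Eif5 RNA in HrasG12V shEif2b5 differed from that in HrasG12V shScram by -0.41 (adjusted p = 0.0606), or -0.29 (adjusted p = 0.575) without them.

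The genes for eIF1A, Eif1ax and Eif1a, had the same order of conditions. Eif1ax (chromosome X, 159372178 to 159389928) had RNA levels of 45.7, 56.0 and 59.7 CPM in WT, 71.0, 71.6 and 99.5 CPM for HrasG12V shScram and 75.1, 66.0 and 62.0 CPM for HrasG12V shEif2b5. Eif1a RNA was 2.43, 3.11 and 3.80 CPM in WT, 8.78, 6.11 and 8.85 CPM for HrasG12V shScram and 2.96, 5.67 and 4.23 CPM for HrasG12V shEif2b5. For both genes the HrasG12V shScram libraries were above all WT libraries. The RNA rose by 0.58 for Eif1ax (SE 0.17, adjusted p = 0.0456) and by 1.33 for Eif1a (SE 0.36, adjusted p = 0.0342), and the differences were 0.40 (adjusted p = 0.458) and 0.91 (adjusted p = 0.564) without HrasG12V shScram RNA libraries 1 and 3. In footprints both genes also had HrasG12V shScram libraries wholly above WT, with differences of 0.41 for Eif1ax (adjusted p = 0.159) and 0.72 for Eif1a (adjusted p = 0.104). Eif1ax supplied 91.6% of the pair's footprint density in WT and 89.7% in HrasG12V shScram.

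The remaining genes of this list were Eif1b, a close relative of Eif1, and Eif1ad, which acts in maturation of the small subunit. Eif1b footprints were 34.0, 30.4 and 40.1 CPM in WT and 37.5, 35.8 and 35.6 CPM in HrasG12V shScram, and its RNA difference between these conditions was 0.10 (95% interval -0.32 to 0.51), or 0.04 without HrasG12V shScram RNA libraries 1 and 3. Eif1b RNA in HrasG12V shEif2b5, at 22.2, 21.6 and 22.1 CPM, was above the WT libraries (16.6, 17.5 and 15.2 CPM), with a difference of 0.43 (adjusted p = 0.667). Eif1 made up 87.7% of the RNA density of Eif1 and Eif1b in WT, 92.5% in HrasG12V shScram (91.6% in its library 2 alone) and 83.5% in HrasG12V shEif2b5, and 95.2%, 93.9% and 93.6% of their footprint density. Eif1ad footprints were 20.4, 20.2 and 16 CPM in WT and 35.5, 32.5 and 25.8 CPM in HrasG12V shScram, which did not overlap (difference 0.73, adjusted p = 0.126). Between HrasG12V shEif2b5 and HrasG12V shScram the footprint differences of all 6 genes of the list were below 0, from -0.28 to -0.06. None was called, and 5707 of all 11448 genes tested were below 0. All 6 genes but Eif5 have short coding sequences, of 339 to 510 bases. The 19 factors with at most 873 bases had a median difference of -0.11 in this comparison. The part of coding length was not tested.

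**Figure D3:**
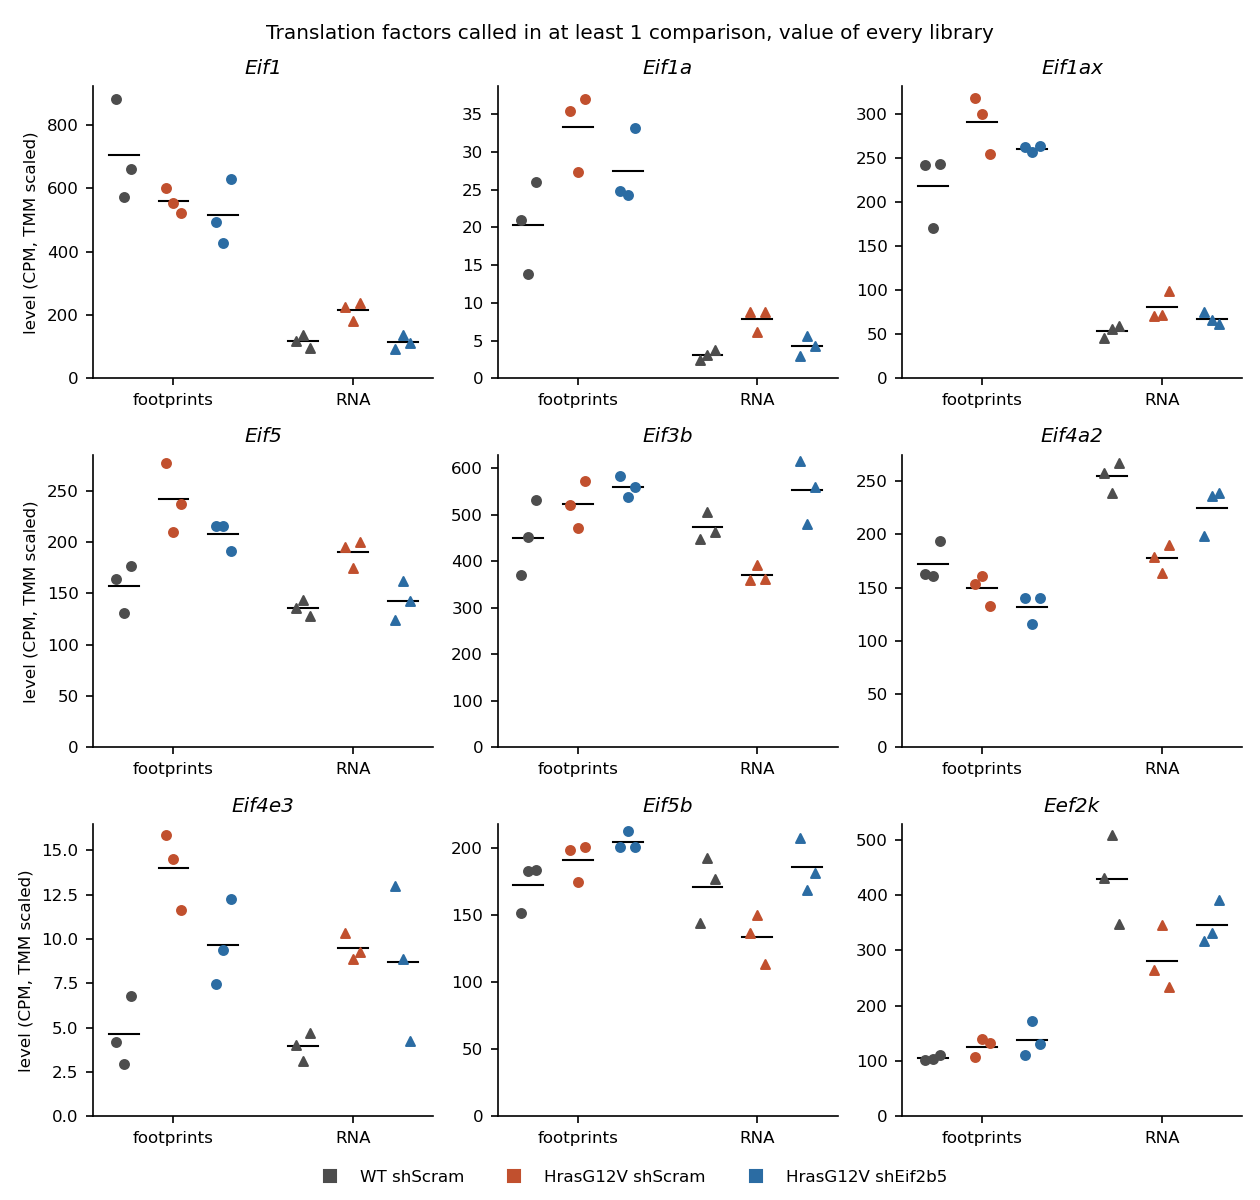
Level of every library for the 9 factors called in at least 1 comparison, in CPM after TMM scaling on the y axis, with footprints on the left and RNA on the right of each panel and 1 point per library (3 per condition). Eif1 RNA is highest in the 3 HrasG12V shScram libraries (182 to 236 CPM) and Eif4e3 footprints lie at 11.7 to 15.8 CPM there against 2.95 to 6.76 CPM in WT.

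The subunits of eIF3, the largest initiation factor, had small footprint differences, none of which was called. All 12 tested subunits were above 0 in HrasG12V shScram relative to WT, from 0.01 to 0.29 with a median of 0.16 on the log2 scale, and 0 of 12 were called (1 at an unadjusted p under 0.05, Eif3m, where 14.3% of all genes had one). In HrasG12V shEif2b5 relative to WT all 12 were again above 0, from 0.09 to 0.40 with a median of 0.19. There the libraries lay wholly above those of WT for 9 of 12, against 8.32% of all genes, and 5 had an unadjusted p under 0.05 (Eif3a, Eif3b, Eif3c, Eif3i and Eif3l), against 14.4%, with 0 called. Both sets of differences share the WT libraries. In RNA the 12 split evenly around 0 in HrasG12V shScram (6 above, 6 below, also without libraries 1 and 3), with 0 called. RNA differences of HrasG12V shEif2b5 from WT were above 0 for 9 of 12, with a median of 0.07 and 0 called.

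Eif3i, a scaffold subunit of eIF3, illustrates the size. Its footprints were 249, 310 and 275 CPM in WT, 318, 317 and 329 CPM for HrasG12V shScram and 346, 366 and 393 CPM for HrasG12V shEif2b5. The 3 conditions did not overlap, and the difference of HrasG12V shEif2b5 from WT was 0.40 (SE 0.12, adjusted p = 0.105). Eif3l, which with Eif3k forms the subunit pair at the edge of the complex, had 312, 313 and 320 CPM in WT, 322, 360 and 369 CPM for HrasG12V shScram and 382, 375 and 387 CPM for HrasG12V shEif2b5 (difference from WT 0.28, adjusted p = 0.243). Eif3k footprints were 325, 363 and 405 CPM in WT and 405, 428 and 407 CPM in HrasG12V shEif2b5. Eif3m footprints were 393, 371 and 468 CPM in WT, 557, 466 and 481 CPM for HrasG12V shScram and 476, 417 and 464 CPM for HrasG12V shEif2b5.

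Eif3b, the core scaffold subunit that contacts the small ribosomal subunit, lies at chromosome 5, 140419328 to 140443360. Its RNA was 447, 507 and 464 CPM in WT, 360, 393 and 361 CPM for HrasG12V shScram and 616, 481 and 561 CPM for HrasG12V shEif2b5. The HrasG12V shScram libraries were below all others. Eif3b RNA rose 1.49-fold in HrasG12V shEif2b5 relative to HrasG12V shScram (log2 0.57, SE 0.14, adjusted p = 0.017), and this was 0.49 (adjusted p = 0.338) without HrasG12V shScram RNA libraries 1 and 3. Its footprints, 522, 472 and 573 CPM for HrasG12V shScram and 583, 538 and 560 CPM for HrasG12V shEif2b5, overlapped (difference 0.10, 95% interval -0.17 to 0.37).

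Subunits that sit in 1 complex differed in footprint density by several-fold. In WT the density per kilobase of coding sequence ran from 128 CPM per kb for Eif3a to 557 for Eif3k, a 4.36-fold range with a median of 213 over the 12 subunits. The range was 4.30-fold in HrasG12V shScram and 3.76-fold in HrasG12V shEif2b5. RNA density in WT ran over 5.13-fold, from 117 CPM per kb for Eif3d to 598 for Eif3f, and the SD of log2 density was 0.58 for footprints and 0.77 for RNA. Eif3f, a TOP mRNA, thus had the highest RNA density of the 12 and a middling footprint density of 228 CPM per kb. Of the 28-base windows of Eif3m and Eif3e, 64.9% and 50.8% also occur in other genes, so their densities depend on the treatment of such reads.

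**Figure D4:**
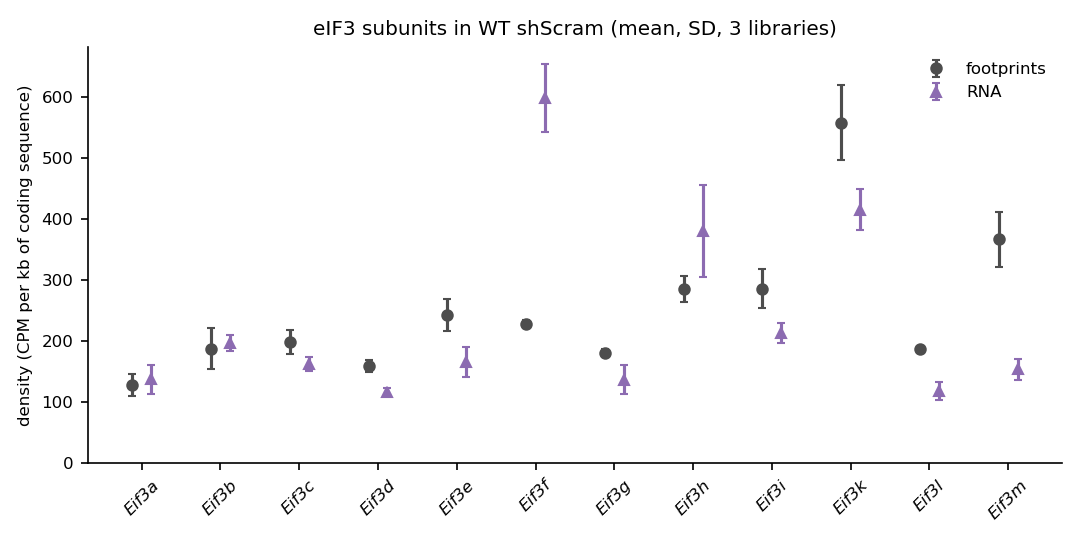
Footprint and RNA density of the 12 eIF3 subunits in WT shScram, in CPM per kb of coding sequence on the y axis, as the mean and SD of 3 libraries. Footprint densities run from 128 (Eif3a) to 557 (Eif3k) and RNA densities from 117 (Eif3d) to 598 (Eif3f).

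Among the cap-binding, scaffold and helicase genes of eIF4, Eif4e3 changed and the abundant members did not pass the test. Eif4e3 (chromosome 6, 99625135 to 99666771) encodes an eIF4E relative with an unusual mode of cap binding. Its footprints were 4.18, 2.95 and 6.76 CPM in WT, 15.8, 14.5 and 11.7 CPM for HrasG12V shScram and 7.44, 9.37 and 12.2 CPM for HrasG12V shEif2b5. All HrasG12V libraries were above all WT libraries. Eif4e3 footprints rose 3.02-fold in HrasG12V shScram (log2 1.60, SE 0.30, adjusted p = 0.00716), the largest footprint difference among the factors, and the call was lost without HrasG12V shScram footprint library 1 (adjusted p = 0.0558) or WT library 2 (0.0571). Eif4e3 RNA was 4.05, 3.11 and 4.70 CPM in WT, 10.3, 8.88 and 9.28 CPM for HrasG12V shScram and 13, 8.87 and 4.23 CPM for HrasG12V shEif2b5. The RNA rose by 1.23 (SE 0.36, adjusted p = 0.0469), or 1.11 (adjusted p = 0.429) without HrasG12V shScram RNA libraries 1 and 3. Eif4e3 overlaps the predicted gene Gm20696 on the same strand and 51.7% of its 28-base windows also occur in other genes.

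Eif4e3 was a minor member of its family. It held 2.20% of the footprint density of Eif4e, Eif4e2 and Eif4e3 in WT, 4.92% in HrasG12V shScram and 3.68% in HrasG12V shEif2b5. Eif4e, the main cap-binding protein, held 74.7%, 78.2% and 77.7%. Eif4e footprints were 143, 129 and 213 CPM in WT, 247, 233 and 216 CPM for HrasG12V shScram and 213, 192 and 235 CPM for HrasG12V shEif2b5. HrasG12V shScram lay above WT, with WT library 3 close to its lowest library, and the difference was 0.52 (95% interval 0.19 to 0.85, adjusted p = 0.114). Eif4e2, a relative linked to translational repression, held the rest of the family's density.

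The helicase genes divided. Eif4a2 (chromosome 16, 23107444 to 23114136), the less abundant relative of Eif4a1, had RNA levels of 257, 239 and 267 CPM in WT, 179, 164 and 190 CPM for HrasG12V shScram and 199, 236 and 239 CPM for HrasG12V shEif2b5. The HrasG12V shScram libraries were below all WT libraries. Eif4a2 RNA fell by 0.52 on the log2 scale (SE 0.14, adjusted p = 0.0304), a 1.43-fold lower level, and the difference was -0.63 (adjusted p = 0.162) without HrasG12V shScram RNA libraries 1 and 3. Its footprints were 162, 161 and 193 CPM in WT, 154, 161 and 133 CPM for HrasG12V shScram and 140, 116 and 140 CPM for HrasG12V shEif2b5, the last wholly below WT (difference -0.38, adjusted p = 0.166). Eif4a1 held 88.0% of the footprint density of Eif4a1, Eif4a2 and Eif4a3 in WT and 90.0% in HrasG12V shEif2b5. Of the Eif4a1 windows, 99.4% also occur in other genes.

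The helicase partner Eif4h had footprints of 426, 440 and 471 CPM in WT, 483, 462 and 471 CPM for HrasG12V shScram and 475, 479 and 488 CPM for HrasG12V shEif2b5. Its HrasG12V shScram difference of 0.08 had a 95% interval of -0.14 to 0.30. Eif4b, another helicase partner and a TOP mRNA, had the widest spread in WT footprints among these genes, at 230, 285 and 482 CPM. Eif4g2, an eIF4G relative that does not bind eIF4E, had footprints of 626, 613 and 566 CPM in WT and 516, 477 and 457 CPM in HrasG12V shScram, which did not overlap (difference -0.32, adjusted p = 0.226). Eif4g3 footprints were 66.7, 71.3 and 75.1 CPM for HrasG12V shScram and 83.7, 88.8 and 94.3 CPM for HrasG12V shEif2b5, the smallest p of the factors in that comparison (difference 0.32, 95% interval 0.06 to 0.59, adjusted p = 0.994).

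No inhibitor of eIF4E was called in any comparison by edgeR or DESeq2. Eif4ebp2 footprints were 40.7, 35.8 and 29.8 CPM in WT and 24.5, 28.4 and 26.9 CPM in HrasG12V shScram, which did not overlap (difference -0.41, 95% interval -0.80 to -0.02, adjusted p = 0.322). Eif4ebp1 footprints were 26.8, 25.4 and 16 CPM in WT and 28.3, 26.8 and 20.2 CPM in HrasG12V shScram (difference 0.14, 95% interval -0.30 to 0.58). Eif4enif1, which carries eIF4E into the nucleus and represses mRNAs, had 65.8, 61.9 and 61.1 CPM in WT and 56.0, 55.2 and 56.0 CPM in HrasG12V shScram. That separation was small beside the abundance (difference -0.17, adjusted p = 0.592). Eif4ebp3 stayed between 0.279 and 3.14 CPM of footprints in all 9 libraries, and its difference of 1.14 in HrasG12V shScram had a 95% interval of -0.15 to 2.43.

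The joining factors and eIF5A had footprint differences above 0 in HrasG12V shScram for 4 of 4 genes, with 0 called. Eif5a footprints were 1135, 1143 and 1281 CPM in WT, 1642, 1521 and 1430 CPM for HrasG12V shScram and 1383, 1422 and 1599 CPM for HrasG12V shEif2b5. All 6 HrasG12V libraries were above all WT libraries, with a difference of 0.37 in HrasG12V shScram (95% interval 0.13 to 0.61, adjusted p = 0.13). Eif6 footprints were 116, 135 and 137 CPM in WT, 157, 159 and 150 CPM for HrasG12V shScram and 129, 157 and 150 CPM for HrasG12V shEif2b5 (difference 0.26 in HrasG12V shScram, adjusted p = 0.323). Eif5a2, the second eIF5A gene, made up 0.316% of the pair's footprint density in WT. Eif5b (chromosome 1, 37998010 to 38055579) had RNA of 137, 150 and 114 CPM for HrasG12V shScram and 207, 169 and 182 CPM for HrasG12V shEif2b5, beside 144, 192 and 177 CPM in WT. The HrasG12V shEif2b5 libraries were above all HrasG12V shScram libraries, and Eif5b RNA rose by 0.48 (SE 0.16, adjusted p = 0.0498), or 0.31 (adjusted p = 0.571) without HrasG12V shScram RNA libraries 1 and 3. Its footprints, 198, 175 and 201 CPM for HrasG12V shScram and 201, 213 and 201 CPM for HrasG12V shEif2b5, gave a difference of 0.10 (95% interval -0.15 to 0.34).

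The genes listed with the elongation factors had footprint differences above 0 in HrasG12V shScram for 5 of 5 in the eEF1 list and 3 of 3 in the eEF2 group. With 0 called, the eEF1 list includes Eef1e1. Eef1a1 footprints were 6539, 6892 and 8100 CPM in WT, 9159, 8017 and 8720 CPM for HrasG12V shScram and 8583, 9008 and 9169 CPM for HrasG12V shEif2b5, with only WT library 3 inside the HrasG12V shScram range. Its difference in HrasG12V shScram was 0.27 in footprints (95% interval 0.02 to 0.51, adjusted p = 0.31) and 0.01 in RNA (95% interval -0.42 to 0.44), where it was -0.46 (95% interval -0.97 to 0.05) without HrasG12V shScram RNA libraries 1 and 3. Eef1d, the guanine exchange subunit eEF1Bδ, had 397, 465 and 602 CPM in WT, 670, 631 and 688 CPM for HrasG12V shScram and 685, 695 and 681 CPM for HrasG12V shEif2b5. All 6 HrasG12V libraries were above all WT libraries, and the differences were 0.44 (adjusted p = 0.114) and 0.49 (adjusted p = 0.0827). Eef1b2, the other exchange subunit, had 644, 645 and 918 CPM in WT, 1025, 880 and 863 CPM for HrasG12V shScram and 882, 1005 and 1047 CPM for HrasG12V shEif2b5 (differences 0.33 and 0.41, adjusted p = 0.29 and 0.177). Eef1g, the structural subunit, differed by 0.09 in HrasG12V shScram (95% interval -0.15 to 0.33). Eef1e1, a component of the multi-tRNA synthetase complex, differed by 0.01 in HrasG12V shScram (95% interval -0.30 to 0.31). Windows shared with other genes made up 89.4% of Eef1a1 and 95.9% of Eef1g.

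Eef2 footprints were 1260, 1971 and 1816 CPM in WT, 1793, 1764 and 2202 CPM for HrasG12V shScram and 2136, 2635 and 2376 CPM for HrasG12V shEif2b5. The HrasG12V shEif2b5 libraries were above all WT libraries (difference 0.50, SE 0.15, adjusted p = 0.122), and the RNA difference was 0.11 (95% interval -0.24 to 0.47). Eef2k (chromosome 7, 120842831 to 120907450), the kinase that inactivates eEF2, had RNA of 431, 508 and 348 CPM in WT, 264, 346 and 235 CPM for HrasG12V shScram and 316, 332 and 390 CPM for HrasG12V shEif2b5. HrasG12V shScram lay below WT by a narrow margin at 346 against 348 CPM, and Eef2k RNA fell by 0.61 (SE 0.17, adjusted p = 0.0405), a 1.53-fold lower level. The difference was -0.30 (adjusted p = 0.563) without HrasG12V shScram RNA libraries 1 and 3. Its footprints moved the other way in sign, at 102, 104 and 111 CPM in WT and 107, 139 and 132 CPM in HrasG12V shScram (difference 0.26, adjusted p = 0.464), and the interaction was 0.87 (SE 0.24, adjusted p = 0.0693), or 0.56 (adjusted p = 0.486) without those libraries. DESeq2 called this interaction (0.88, adjusted p = 0.0315). Eef2kmt, which methylates eEF2, held 20.6 CPM of footprints in WT and was not called in any comparison.

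The 9 TOP mRNAs among the factors were Eef1a1, Eef1b2, Eef1d, Eef1g, Eef2, Eif3e, Eif3f, Eif3h and Eif4b. Footprint differences of HrasG12V shScram from WT were above 0 for 9 of 9, against 48% of all genes. These ran from 0.01 to 0.44 with a median of 0.19 on the log2 scale, against a median of -0.01 over all genes. The HrasG12V shScram libraries lay wholly above those of WT for 1 of the 9 (11.1%), against 10.4% of all genes. In HrasG12V shEif2b5 relative to WT the differences were also above 0 for 9 of 9, against 49.2% of all genes, with a median of 0.31. There the libraries lay wholly above those of WT for 5 of the 9, against 8.32% of all genes. In RNA, HrasG12V shScram differences were above 0 for 3 and below 0 for 6, or 5 and 4 without HrasG12V shScram RNA libraries 1 and 3. RNA differences of HrasG12V shEif2b5 from WT were above 0 for 8 of 9, with a median of 0.13. With all libraries edgeR called none of the 9 in any comparison. Without WT footprint library 3, edgeR called 3 in footprints of HrasG12V shScram, Eef1b2 (adjusted p = 0.0186), Eef1d (0.00406) and Eif4b (0.00275). In those of HrasG12V shEif2b5 it called 4, these and Eef1a1 (0.0377), all higher than WT in both comparisons. None of the other fits that left out 1 footprint library called any of the 9 in footprints. The median correlation of WT library 3 with the other footprint libraries was above those of the other WT libraries.

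The ratio of footprints to RNA, set relative to the median gene because both kinds of library were scaled separately, ordered the factors over a wide range. In WT the highest were Eif1a, with a log2 ratio of 2.68 (percentile 99.4 of all tested genes), Eif1 with 2.59 (99.1), Eif1ax with 2.03 (96.4) and Eef1e1 with 1.87 (95.3). The lowest were Eef2k with -2.02 (6.1), Eef2 with -1.66 (10.2), Eif1ad with -1.50 (12.1), Eif4g3 with -1.49 (12.3) and Eif3f with -1.38 (14.2). The Eif1a ratio rests on a low RNA level in WT, given above. Of the 28-base windows, 45.4% in Eif1a and 99% in Eif1 also occur in other genes, so their ratios depend on the treatment of such reads. The list of scanning factors, with Eif1ad, had a median of 1.56, eIF3 subunits of 0.43 and the eEF2 group of -1.66. Eif1, whose start codon context has neither favourable base, was thus among the highest ratios of any gene, and its ratio was 1.42 (percentile 93.2) in HrasG12V shScram, or 1.61 without RNA libraries 1 and 3, and 2.18 (97.1) in HrasG12V shEif2b5.

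TOP mRNAs lay below the median gene in this ratio in all 3 conditions. Their median was -0.81 in WT, -0.44 in HrasG12V shScram and -0.53 in HrasG12V shEif2b5, with 2 of 9 above the median gene in each. Windows shared with other genes made up from 1.23% (Eif3f) to 95.9% (Eef1g) of these 9 coding sequences, and 89.4% of Eef1a1. The part of reads with several matches in these ratios was not tested. For HrasG12V shScram without RNA libraries 1 and 3, the TOP median was -0.45, that of the other 34 factors 0.54 and that of all 43 factors 0.45. The other 34 factors had medians of 0.27, 0.51 and 0.51. Over all 43 factors the median was 0.17 in WT, 0.38 in HrasG12V shScram and 0.40 in HrasG12V shEif2b5. The interaction test called Eif1 alone between HrasG12V shScram and WT (8 factors at an unadjusted p under 0.05, against 15.8% of all genes, or 4 called by DESeq2 against 3.4%). The DESeq2 calls were Eif1, Eef2k, Eef1d (0.60, adjusted p = 0.0343) and Eif4g2 (-0.54, adjusted p = 0.0438). In edgeR's test 0 were called between HrasG12V shEif2b5 and HrasG12V shScram, where 2.11% of all genes were called (1.8% higher and 0.315% lower), 5 factors had an unadjusted p under 0.05 against 19.1% of all genes, and DESeq2 called 2 against 6.15%. These 2 were Eif1 and Eif3l (0.59, adjusted p = 0.0484). Without HrasG12V shScram RNA libraries 1 and 3 edgeR called 0 factors in both, and 7 and 2 had an unadjusted p under 0.05, against 10.3% and 7.88% of all genes. The test called 0 between HrasG12V shEif2b5 and WT, where 0% of all genes were called, 3 factors had an unadjusted p under 0.05 against 5.87% of all genes, and DESeq2 called 0 factors and 0% of all genes.

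**Figure D5:**
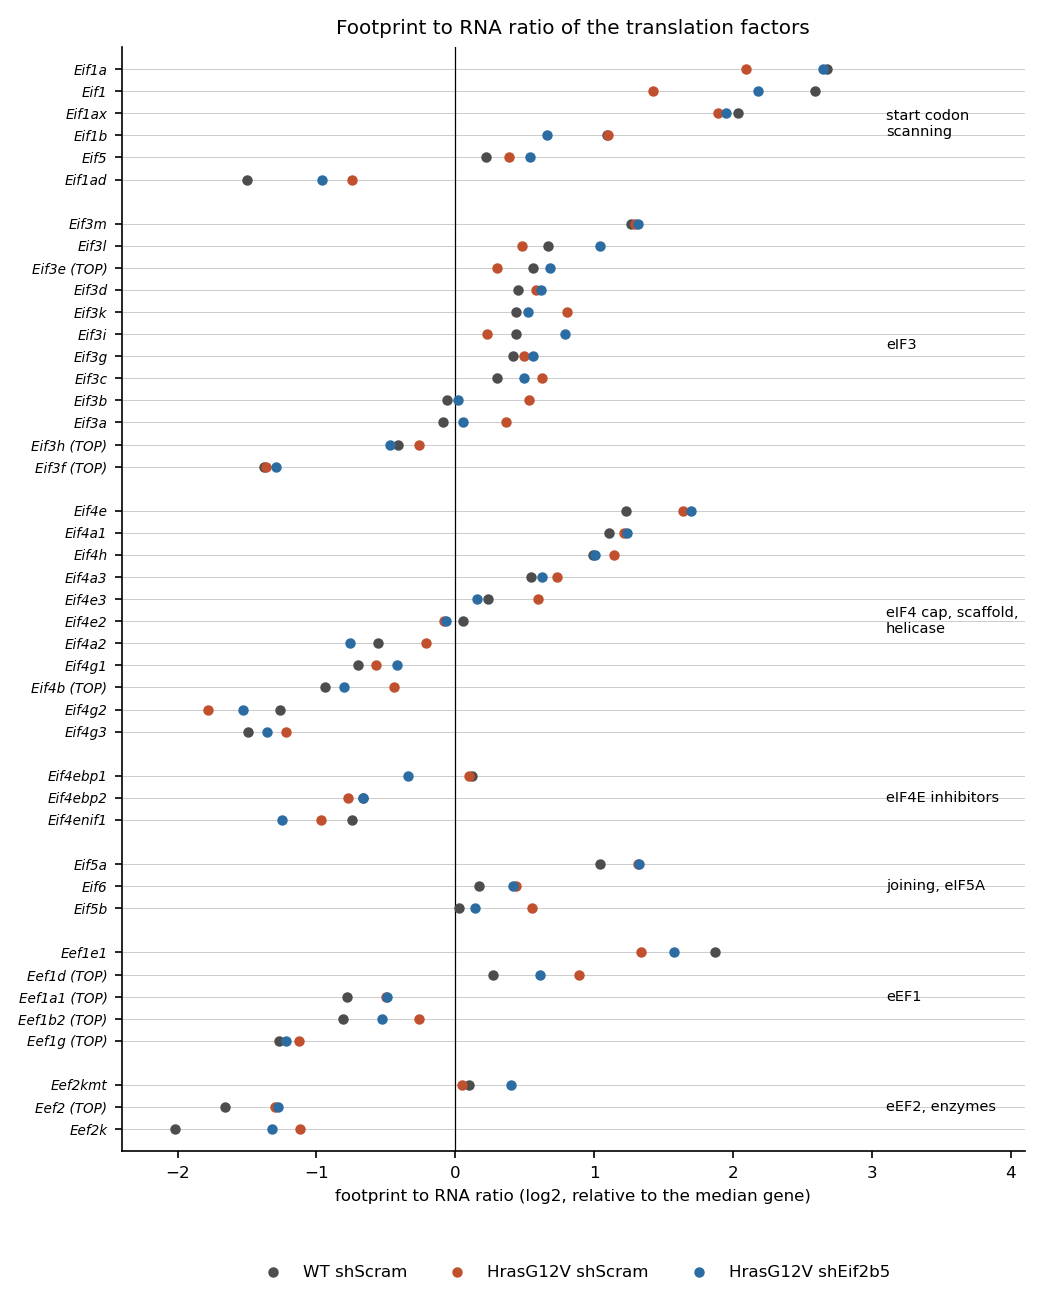
Footprint to RNA ratio of the 43 factors tested in both kinds of library, as log2 relative to the median gene on the x axis, by role and in the 3 conditions (1 point each, mean footprints over mean RNA). Eif1a, Eif1 and Eif1ax lie farthest right in WT (2.68, 2.59 and 2.03), TOP mRNAs are marked, and Eif1 is the point that moves farthest left in HrasG12V shScram (1.42).

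Footprint differences between HrasG12V shEif2b5 and HrasG12V shScram went with coding length among the factors. Spearman's rho with length was 0.62 over the 45 factors and 0.25 over 11394 genes, which share the same 6 libraries. The 19 factors with coding sequences of at most 873 bases had a median difference of -0.11 and the 9 with at least 2235 bases had 0.15. In RNA, differences between HrasG12V shScram and WT went with GC content over all genes (rho -0.48, or -0.07 without HrasG12V shScram libraries 1 and 3), and over the 43 factors rho was -0.28, or -0.10 over the 44 tested without those libraries. Among the called factors, GC content of the coding sequence was lowest for Eif1a (40.5% GC), Eif1ax (41%), Eif5 (42%), Eif5b (43.3%), Eif4a2 (43.4%) and Eif1 (45.4%). With offsets for coding length and GC fitted in the test, chosen after seeing the data, Eif1 RNA differed by 0.42 (adjusted p = 0.104), Eif5 by 0.07 (0.819), Eif1a by 0.68 (0.275) and Eif1ax by -0.03 (0.94), while Eif4a2 stayed called at -0.89 (0.000388). The calls of Eef2k (56% GC) and Eif4e3 (54.9% GC) in HrasG12V shScram RNA against WT were lost as well. Between HrasG12V shEif2b5 and HrasG12V shScram, the Eif1 RNA call was lost with the offsets, and those of Eif3b and Eif5b stayed. Eef1b2 (0.61, adjusted p = 0.0228) and Eif4a2 (0.79, adjusted p = 0.00334) were called there only with the offsets.

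Other genes of the pathway were read from a list of 32 regulators of poly(A) binding and eIF4, termination, recycling and re-initiation factors, and enzymes that modify eIF5A and eEF2. In footprints, 1 of 32 rose in HrasG12V shScram relative to WT, against 1.23% of all genes, the re-initiation factor Denr (0.59, SE 0.14, adjusted p = 0.0375), and none was called in the other 2 comparisons. In RNA its partner Mcts1 rose in HrasG12V shScram (1.09, SE 0.29, adjusted p = 0.0312), 1 of 32 against 4.65% of all genes. Between HrasG12V shEif2b5 and HrasG12V shScram, RNA of 3 of 32 fell, against 7.79% of all genes: Mcts1 (-1.35, SE 0.31, adjusted p = 0.0119), the ribosome recycling ATPase Abce1 (-0.62, SE 0.18, adjusted p = 0.029) and Paip2, an inhibitor of poly(A)-binding protein (-0.68, SE 0.18, adjusted p = 0.0239). Without HrasG12V shScram RNA libraries 1 and 3 none of these RNA calls held: Mcts1 differed by 0.33 (adjusted p = 0.801) and -0.59 (0.646), Abce1 by -0.11 (0.878) and Paip2 by -0.63 (0.345). None was called in RNA between HrasG12V shEif2b5 and WT or in any interaction test.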

How the data were processed

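Per the submitters' processing notes, Bowtie, TopHat2 and HTSeq were used with mm10; versions, strand and the treatment of reads with several matches are not given in the sources used here. Cycloheximide was present throughout extraction, per the labels' protocols. The deposited table holds the authors' unnormalized counts of coding-sequence reads, 1 row per symbol. Counts were tested with edgeR 4.0.16 (R 4.3.3; limma 3.58.1) by the quasi-likelihood test with robust dispersion, after filterByExpr (minimum count 10, minimum total 15) and TMM scaling within each library kind, on all genes and over all 9 libraries of a kind. The interaction test, over 18 libraries, compares the footprint difference with that in RNA. Calls needed a p under 0.05 after Benjamini-Hochberg adjustment over all tested genes; adjusted p-values are from this test unless another is named, and intervals are at 95%. With 3 libraries on each side, exact permutation can reach no p under 0.1; genes were therefore tested with this model. In simulated counts with the same dispersion for every gene, the test recovered the medians of changes put into HrasG12V shScram footprints. No RNA change, deviating library or GC trend was simulated.

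Levels are CPM after TMM scaling. Coding lengths and sequences came from GENCODE M21 (98.7% of symbols matched, 19783 by name and 605 by synonym). Footprint to RNA ratios used a pseudocount of 0.1 CPM. The factors and gene lists were chosen with earlier results of these data known. Named were all called factors, the 3 densest of each role in WT footprints, the 2 smallest p and 2 largest differences of each comparison, factors under 30 counts and called pathway genes; others (Eif3a, Eif3c, Eif4b, Eif4e2, Eif4g1, Eif4g2, Eef1e1, Eif3d, Eif3e, Eif3f, Gm20696 and the TOP genes) were named after their values were seen. Alternatives were DESeq2 1.42.0 or its size factors, upper-quartile factors, other filters, 2 conditions at a time, a replicate block, single libraries left out and offsets for length and GC. Libraries of 1 group differed beyond sampling noise (chi-square 3.35 to 21.1 per degree of freedom), so none is a copy.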

Additional observations from a re-analysis of the deposited data

Results flagged for a closer look

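The Eif1 footprint difference between HrasG12V shScram and WT was lower than its RNA difference by 1.21 on the log2 scale (-1.21, SE 0.25, adjusted p = 0.0213, edgeR's quasi-likelihood interaction test). It was picked out because the difference itself was tested and passed. Eif1 RNA was 182 to 236 CPM in HrasG12V shScram against 97.1 to 138 CPM in WT, while its footprints were 523 to 600 CPM against 572 to 883 CPM. The interaction was -0.98 (adjusted p = 0.272) without HrasG12V shScram RNA libraries 1 and 3 and -0.88 (adjusted p = 0.0271) with offsets for coding length and GC.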

How the results depend on the processing

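The count of called factors depended on single libraries. Over the fits that left out 1 library, it ran from 0 to 8 for footprints of HrasG12V shScram against WT, 0 to 8 for HrasG12V shEif2b5 against WT, 1 to 14 for RNA in both comparisons with HrasG12V shScram, 0 to 4 for the interaction of HrasG12V shScram against WT and 0 to 3 for that of HrasG12V shEif2b5 against HrasG12V shScram; it was 0 throughout in the other 3 comparisons. The 14 came without HrasG12V shScram RNA library 2. In footprints of HrasG12V shScram against WT, 1 factor was called with the 10 CPM filter, and in those of HrasG12V shEif2b5 against WT, 1 with no filter and 2 by DESeq2. In RNA of HrasG12V shScram against WT, 1 was called when only the 2 conditions were fitted, 0 without HrasG12V shScram libraries 1 and 3 and 1 with the offsets for length and GC. In RNA of HrasG12V shEif2b5 against HrasG12V shScram, 6 were called with no filter and 0 without libraries 1 and 3. The interaction of HrasG12V shScram against WT gave 4 by DESeq2 and 0 without those libraries, and that of HrasG12V shEif2b5 against HrasG12V shScram gave 2 by DESeq2 and 1 with the offsets. Among the called differences, the only one that reversed was Eif1ax RNA, at -0.032 (adjusted p = 0.94) with the offsets. The cause of these changes was not tested, except that fewer libraries enter the fits without a library. Scaling by DESeq2 size factors or upper-quartile factors moved no count of called factors by over 1.5 times, and median footprint to RNA ratios moved by less than their SD over libraries under each alternative run.

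Replicate numbers were not taken as pairs, since same-numbered libraries had correlations of deviations of -0.141 to 0.24 in footprints and -0.307 to 0.301 in RNA. Between the footprint and RNA libraries of a condition, same-numbered pairs had 0.0148 to 0.287, with 6 of 9 over 0.1, and different numbers -0.263 to 0.0403; 8 of 9 footprint libraries and 9 of 9 RNA libraries correlated best with their own number, which is a hint from the data and not from the design. With a replicate block, 3 factors were called in RNA of HrasG12V shScram against WT, where the main count was 7, and 2 in its interaction, Eif1 and Eef2k (0.87, adjusted p = 0.0409), where it was 1. With the block, footprints gave 3, 0 and 0 called factors in HrasG12V shScram against WT, HrasG12V shEif2b5 against HrasG12V shScram and HrasG12V shEif2b5 against WT.

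Depth limits the rarest factors: Eif4e3, Eif1a, Eif4ebp3 and Eif5a2 had RNA levels near or under 10 CPM, and Eef1a2 and Eif4e1b were not testable.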
